A study of Mus musculus with 5 samples.

Results

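Collagens, matrix glycoproteins, proteoglycans and the enzymes that crosslink them were examined in RNA of macrophages taken from mouse tumors. The set holds 44 genes, chosen by name with earlier results of these data known. Every symbol was found once among the 24982 rows of the authors' deposited Cuffdiff table. A gene was kept where its FPKM (fragments per kilobase of transcript, scaled to the number of mapped fragments) was at least 1 in either group, which left 43. Just inside that limit lay Eln, at 1.24 FPKM for MEK1-low and 1.18 for MEK1-hi. Just outside it lay Col11a1, a minor fibrillar collagen of cartilage, at 0.287 and 0.280 FPKM, a row that Cuffdiff did not test.

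The tumors were of the 9609 line, an MCA fibrosarcoma, that is, a malignant tumor of connective-tissue cells. There were 5 macrophage libraries, 3 from the group called MEK1-hi and 2 from the group called MEK1-low. Tumor line, genotype and treatment all carry these names in the labels, the treatment being exosomes, which are vesicles that cells secrete. For MEK1-low the exosomes carry the added note GFP, and the deposited table names its groups GFP_exo and MEK1_exo, which were matched to MEK1-low and MEK1-hi through those treatment labels. MEK1 is a kinase of the RAS-RAF-MEK-ERK cascade. The labels give no age or strain of the animals, no gate for the macrophages and no count of animals or pooling. Rejecting and growing tumors are named in the title of the series, but no label ties either group to an outcome.

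The extracellular matrix is the protein scaffold between cells. Fibroblasts, pericytes and sarcoma cells are its main producers, while fibronectin, thrombospondin-1 and versican are also made by monocytes and macrophages. Fibrillar collagens form the load-bearing fibres, collagen IV with laminin, nidogen and perlecan forms basement membranes, and beaded-filament and fibril-associated collagens link fibres to each other and to cells. Matricellular proteins such as tenascin-C and the thrombospondins act on cells more than they bear load, proteoglycans space and organise fibrils, and lysyl oxidases crosslink collagen and elastin. In tumors this matrix is remodelled by stromal cells and by macrophages, which also take up collagen fragments.

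The deposited table holds 1 pooled FPKM per group and no value per library. Spread between libraries, overlap of the groups and the depth of each library are therefore unknown here, and no SD can be given. The error behind a comparison is that of the authors' Cuffdiff test, with its q (the p-value adjusted over the 12311 rows tested), and a difference was called at a q of at most 0.05. Nothing in the labels says that libraries came from separate animals, so p and q reflect the spread among these libraries alone, and that spread may be technical. Where a pair of FPKM values is given, the first belongs to MEK1-low and the second to MEK1-hi, and a negative log2 fold change means the lower level in MEK1-hi.

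Matrix transcripts were lower in MEK1-hi almost throughout the set. Of 43 members, 41 had the lower FPKM in MEK1-hi, where 53.5% of the 11350 tested rows with an FPKM of at least 1 did. The median log2 fold change was -0.72 over the members and -0.02 over those rows. Thbs4 and Acan reached an FPKM of 1 through MEK1-low alone, and without that limit 42 of the 44 were lower. By Cuffdiff's test in the authors' deposited table, 10 of the 43 fell and 0 rose, beside 0.325% of all tested rows called lower, 0.999% called higher and 1.32% called either way. Among tested rows with an FPKM of at least 1, the share called lower was 0.344%. The 10 were Thbs4, Igfbp5, Acan, Col14a1, Tnc, Col6a3, Col18a1, Loxl2, Col5a3 and Col5a1, and they made up 25.0% of the 40 rows called lower in the whole table. Because the set was chosen with earlier results of these data known, these counts and shares are not independent support.

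Size and test did not always go together. A decrease of at least 1.5-fold was seen in 27 members, against 3.92% of the tested rows with an FPKM of at least 1, and one of at least 2-fold in 10 members, against 0.943%. With Cuffdiff's unadjusted p under 0.05 as the limit, 25 members were lower and 0 higher, beside 2.58% and 3.5% of tested rows. At a q of at most 0.1, 13 members were lower, beside 0.439% of tested rows. The count of calls depended on the p values: 1 member, Igfbp5, passed when p was read from a normal distribution at the deposited statistic, and 0 under the Benjamini-Yekutieli adjustment. With 1 pooled value per group, fewer matrix-producing cells among the macrophages and less matrix RNA per cell cannot be told apart.

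**Figure D1:**
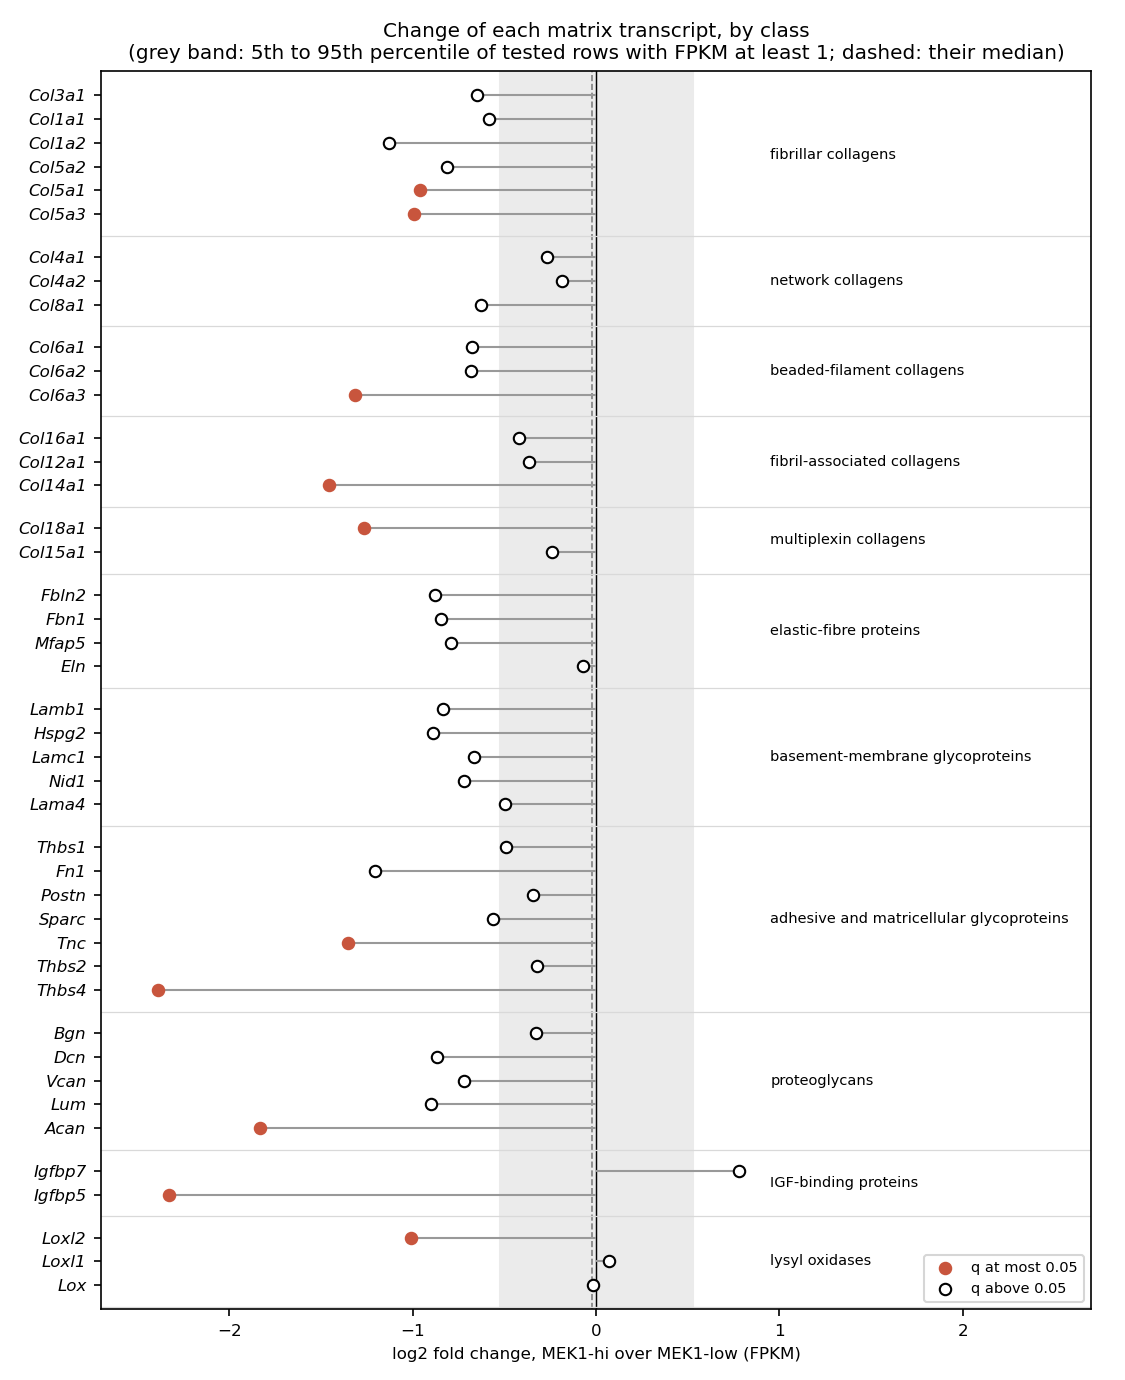
Log2 fold change of FPKM (MEK1-hi over MEK1-low, horizontal axis) for the 43 matrix members grouped by class, with filled points for a Cuffdiff q of at most 0.05. The 10 filled points all lie left of 0, Igfbp7 is the member farthest to the right at 0.78, and the grey band spans the 5th to 95th percentile of tested rows (-0.53 to 0.53).

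Summed over the 44 genes, FPKM came to 4359 and 2758, a ratio of 1.58. That was 0.953% and 0.563% of the summed FPKM of all rows. The 6 most abundant members in MEK1-low were Thbs1, Fn1, Postn, Col3a1, Col1a1 and Sparc, which together held 64.5% (MEK1-low) and 66.1% (MEK1-hi) of the members' FPKM. The set's total was thus carried by a few abundant transcripts, of which none passed Cuffdiff's test.

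The labelled cell type was seen in its markers. All 12 macrophage markers were expressed, with summed FPKM of 16890 and 19835, and 0 were called in the authors' deposited table. Transcripts of other cells were present at lower levels. Of 17 fibroblast and fibrosarcoma markers, 15 reached an FPKM of 1. Of the 15, 12 were lower in MEK1-hi, against 53.5% of tested rows with such an FPKM. Calls were 2 lower and 0 higher, beside 0.325% and 0.999% of all tested rows. The list summed to 753 and 644 FPKM. S100a4, also made by macrophages, gave most of that sum (474 and 445 FPKM), and the fibroblast gene Tcf21 was listed at 0 in both groups. Thy1, a fibroblast surface protein also found on T cells, went from 51.8 to 25.8 FPKM (q = 0.0163) and Lrrc15, a marker of matrix-producing fibroblasts, from 8.80 to 2.76 (q = 0.00676), both called in the authors' deposited table. Pdpn had 79.4 and 59.5 FPKM (q = 0.96) there. Prrx2, Twist1 and Twist2, transcription factors of mesenchymal cells, had the higher FPKM in MEK1-hi, Prrx2 with 2.19 and 5.85 FPKM (q = 0.242 by Cuffdiff), and none of them was called.

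Markers of mural cells, the contractile cells around vessels, were fewer and lower. Of 11 pericyte and smooth muscle markers, 5 reached an FPKM of 1, Rgs5 through MEK1-low alone. Each of the 5 was lower in MEK1-hi, against 53.5% of tested rows with such an FPKM. Calls were 2 lower and 0 higher, beside 0.325% and 0.999% of all tested rows. With no limit on level, 11 of the 11 were lower, with sums over the list of 42.9 and 18.1 FPKM. Those among them that Cuffdiff did not test lay at 0.248 FPKM or less in both groups, so their direction says little. Acta2 (23.4 and 9.36 FPKM) and Cspg4 (5.02 and 1.52 FPKM) were called lower, both with q = 0.00676 in the authors' deposited table, and Tagln had 7.52 and 3.34 FPKM (q = 0.9998). Endothelial markers summed to 20.6 and 20.7 FPKM, with 6 of 12 at an FPKM of at least 1 and 0 called. Of 7 epithelial markers, 2 reached that level (Krt18 and Cdh1), with 0 called. Most fibroblast and mural cell markers with an FPKM of at least 1 thus had the lower level in MEK1-hi, as the matrix genes did, and their part in the matrix result was not tested.

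The base sequence just upstream of the transcription start is shown for 4 of the called genes. Col5a1 was taken as a fibrillar chain and Col6a3 as the only called chain of the beaded-filament class. Tnc was the called member with the largest loss of FPKM, and Thbs4 the one with the largest fold. No link between these sequences and the lower levels was tested. Each run is the 250 bases before the RefSeq start site on GRCm38.p6 (the mm10 assembly), 5′ to 3′ on the gene's strand, with capitals marking any match, on either strand, to TATAAA (the TATA box), GGGCGG (the GC box), TGACTCA (the AP-1 motif), CAGACA (a SMAD motif), CCAAT (the CCAAT box) or CATTCC (a TEAD motif). The windows are chr2:27886175-27886424 on the plus strand, and chr1:90843972-90844221, chr4:64047016-64047265 and chr13:92794819-92795068 on the minus strand, where Tnc has 2 RefSeq windows and the one at the annotated gene start is shown.
Col5a1: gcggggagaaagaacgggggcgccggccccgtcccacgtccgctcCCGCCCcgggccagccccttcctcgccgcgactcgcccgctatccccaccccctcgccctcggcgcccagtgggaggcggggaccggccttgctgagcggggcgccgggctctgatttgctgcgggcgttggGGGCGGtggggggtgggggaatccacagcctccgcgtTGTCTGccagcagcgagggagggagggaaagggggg
Col6a3: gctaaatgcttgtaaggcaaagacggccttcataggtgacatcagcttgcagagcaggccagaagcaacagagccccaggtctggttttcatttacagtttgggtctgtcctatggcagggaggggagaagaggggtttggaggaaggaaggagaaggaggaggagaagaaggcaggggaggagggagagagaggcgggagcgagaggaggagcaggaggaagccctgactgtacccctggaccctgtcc
Tnc: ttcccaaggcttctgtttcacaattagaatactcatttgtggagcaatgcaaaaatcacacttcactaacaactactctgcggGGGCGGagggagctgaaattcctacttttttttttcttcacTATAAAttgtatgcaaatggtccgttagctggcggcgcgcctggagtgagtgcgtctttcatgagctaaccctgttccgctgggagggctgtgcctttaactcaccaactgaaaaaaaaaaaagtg
Thbs4: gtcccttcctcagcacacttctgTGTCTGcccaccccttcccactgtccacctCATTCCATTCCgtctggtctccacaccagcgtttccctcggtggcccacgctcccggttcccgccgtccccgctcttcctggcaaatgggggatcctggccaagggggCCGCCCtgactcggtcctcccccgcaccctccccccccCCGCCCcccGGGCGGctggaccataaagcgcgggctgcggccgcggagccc

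The 6 motifs were spread unevenly over the windows. RefSeq windows were matched for 29 of the 44 genes, 8 of them called. Not all of these windows lie at the annotated gene start. Those of Sparc, Fbn1 and Col1a2 are 3103, 1555 and 804 bases from it and overlap exons of their own gene. GGGCGG was found in 20 of the 29 (69.0%) and in 6 of the 8, against 42.6% of 21263 windows of protein-coding genes and 32.7% of all 32851 windows. The members' windows were also richer in G and C, with a median of 62.0% against 55.6% for protein-coding genes. CCAAT was found in 12 (41.4%, against 33.8% of all windows), CAGACA in 7 (24.1%, against 17.1%), CATTCC in 5 (17.2%, against 12.6%), TATAAA in 4 (13.8%, against 12.4%) and TGACTCA in 1 (3.45%, against 4.46%). Over windows of protein-coding genes the shares, in that order, were 35.4%, 15.2%, 11.7%, 11.6% and 4.06%. The Col6a3 window held none of these runs of letters, that of Col5a1 held the GC box and the SMAD motif, that of Tnc the GC box and the TATA box, and that of Thbs4 the GC box, the SMAD motif and the TEAD motif, the last in overlapping copies. A match is a run of letters, not a bound site.

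Fibrillar collagens were the most abundant collagen class, with summed FPKM of 1213 and 736. Of the 6 chains with an FPKM of at least 1, 6 were lower and 2 were called lower, both of collagen V. Collagen V is the minor fibrillar collagen that nucleates collagen I fibrils and sets their width. Col5a1 (mm10 chromosome 2, 27886425 to 28039510) went from 56.6 to 29.1 FPKM, a log2 fold change of -0.96 (q = 0.0491 in the authors' deposited table). Col5a3 (chromosome 9, 20770057 to 20815067) went from 22.1 to 11.1 FPKM, a log2 fold change of -0.996 (q = 0.0344 in the authors' deposited table). Their partner Col5a2 had 61.0 and 34.7 FPKM and a log2 fold change of -0.81, and did not pass (q = 0.192 by Cuffdiff). All 3 collagen V chains were thus between 1.76-fold and 1.99-fold lower, and the test separated them by small differences.

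Collagens I and III, the bulk of tumor and scar fibres, were high in these macrophage libraries and not called. Col3a1 had 454 and 290 FPKM (log2 fold change -0.65, Cuffdiff q = 0.9998). Col1a1 had 421 and 281 FPKM (-0.58, q = 0.9998 by Cuffdiff). Col1a2 (chromosome 6, 4505618 to 4541543) had 198 and 90.6 FPKM, a larger log2 difference of -1.13 that lay just past the threshold (q = 0.0531 in the authors' deposited table). Col1a2 passed when p was adjusted by the Benjamini-Hochberg method over tested rows with an FPKM of at least 1 (adjusted p = 0.0492).

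The 2 chains of collagen I, which assemble as a pair of alpha-1 chains with a single alpha-2 chain, therefore differed in balance. The ratio of Col1a1 to Col1a2 FPKM went from 2.12 (MEK1-low) to 3.10 (MEK1-hi), a log2 difference of 0.55 between the groups. Within collagen V the ratio of Col5a1 to Col5a2 was 0.928 and 0.839, a log2 difference of -0.15. FPKM is scaled by transcript length, so chains can be set side by side within a group, but a ratio has no replicate error here and was not tested.

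**Figure D2:**
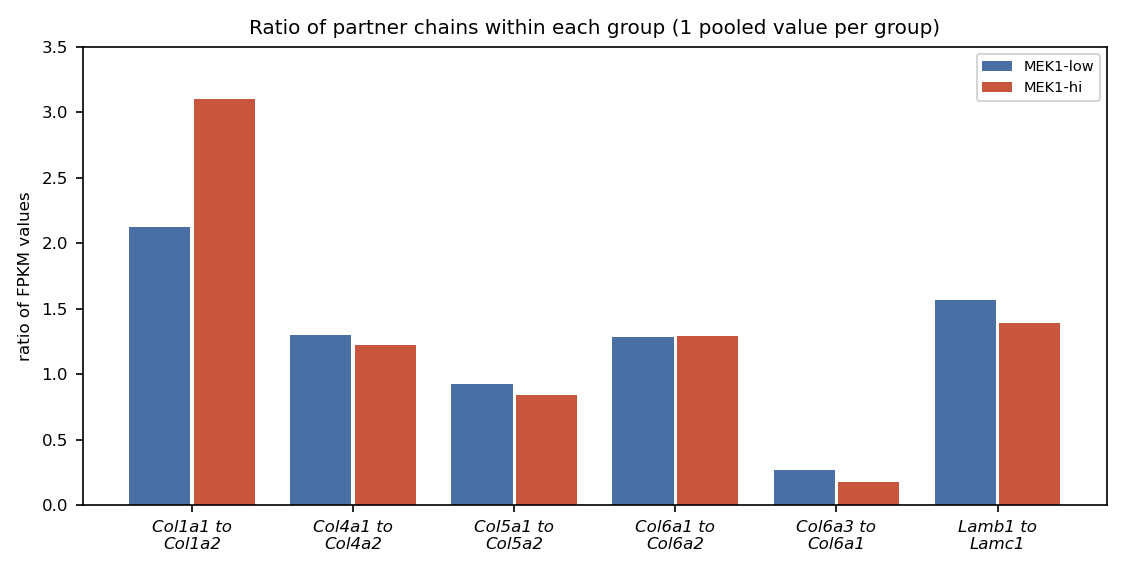
Ratio of the FPKM values of partner chains (vertical axis, from 0) in MEK1-low (blue) and MEK1-hi (red), 1 pooled value per group and no error bars. Col1a1 to Col1a2 stands at 2.12 and 3.10, Col6a3 to Col6a1 at 0.271 and 0.174, and the other 4 pairs differ less on the log scale.

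Collagen VI, which forms beaded filaments between cells and fibres, had the lower FPKM in MEK1-hi in each of the 3 chains of the set. Col6a3 (chromosome 1, 90766860 to 90843971, 44 exons in its longest coding transcript) went from 49.0 to 19.7 FPKM, a log2 fold change of -1.31 (q = 0.00676 in the authors' deposited table). Col6a1 had 181 and 113 FPKM (-0.68, Cuffdiff q = 0.598) and Col6a2 141 and 87.6 FPKM (-0.68, q = 0.59 by Cuffdiff). Col6a1 and Col6a2 lie next to each other on the same strand of chromosome 10, 85161 bases apart, and their ratio was 1.28 and 1.29. The ratio of Col6a3 to Col6a1 was 0.271 and 0.174, a log2 difference of -0.64. The alpha-3 chain was the least abundant of the 3 and the only one of them that was called. Whether it differed in response from its partners was not tested.

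Fibril-associated and multiplexin collagens had 1 call in each class. Col14a1, which binds the surface of collagen I fibrils, went from 15.4 to 5.59 FPKM (chromosome 15, 55307751 to 55520803, log2 fold change -1.46, q = 0.00676 in the authors' deposited table), the largest decrease on the log2 scale of any collagen member. Its relatives Col16a1 (28.4 and 21.2 FPKM) and Col12a1 (16.8 and 13.0 FPKM) had log2 fold changes of -0.42 and -0.37 and were not called. Of the basement-membrane-zone collagens with glycosaminoglycan chains, Col18a1, the source of the fragment endostatin, went from 11.6 to 4.84 FPKM (chromosome 10, 77052179 to 77166530, -1.27, q = 0.00676 in the authors' deposited table). Col15a1, its closest relative, had 3.99 and 3.37 FPKM (-0.24, Cuffdiff q = 0.9998). Whether Col14a1 and Col18a1 differed in response from their relatives was not tested.

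Network-forming collagens had the smallest median among the collagen classes, a log2 fold change of -0.27, and 0 of 3 were called. Col4a1 had 18.0 and 14.9 FPKM and Col4a2 13.9 and 12.2 FPKM, with log2 fold changes of -0.27 and -0.19 (q = 0.9998 for both by Cuffdiff). These basement-membrane chains are read in opposite directions from a shared start region on chromosome 8, their annotated exons overlap by 22 bases, and the table gives both the same locus (11198423 to 11449287). Col8a1, a short-chain collagen of vessels and wounds, had 13.6 and 8.82 FPKM (-0.63, Cuffdiff q = 0.577).

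The non-collagen part of the basement membrane was lower by more than collagen IV in FPKM, though 0 of its 5 members were called. Hspg2, which encodes perlecan, had 40.6 and 21.9 FPKM (log2 fold change -0.89, q = 0.0888 by Cuffdiff). The laminin chains Lamb1 (46.0 and 25.8 FPKM, q = 0.0653), Lamc1 (29.4 and 18.6 FPKM, q = 0.321) and Lama4 (4.19 and 2.96 FPKM, q = 0.9998) had log2 fold changes of -0.83, -0.66 and -0.50 in the authors' deposited table. Nid1, the nidogen that joins laminin to collagen IV, had 27.4 and 16.6 FPKM (-0.72, Cuffdiff q = 0.267). At an unadjusted Cuffdiff p under 0.05, 4 of the 5 were lower and 0 higher, beside 2.58% and 3.5% of all tested rows. The alpha-4 chain was far below its beta and gamma partners in both groups, and the ratio of Lamb1 to Lamc1 was 1.57 and 1.39.

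**Figure D3:**
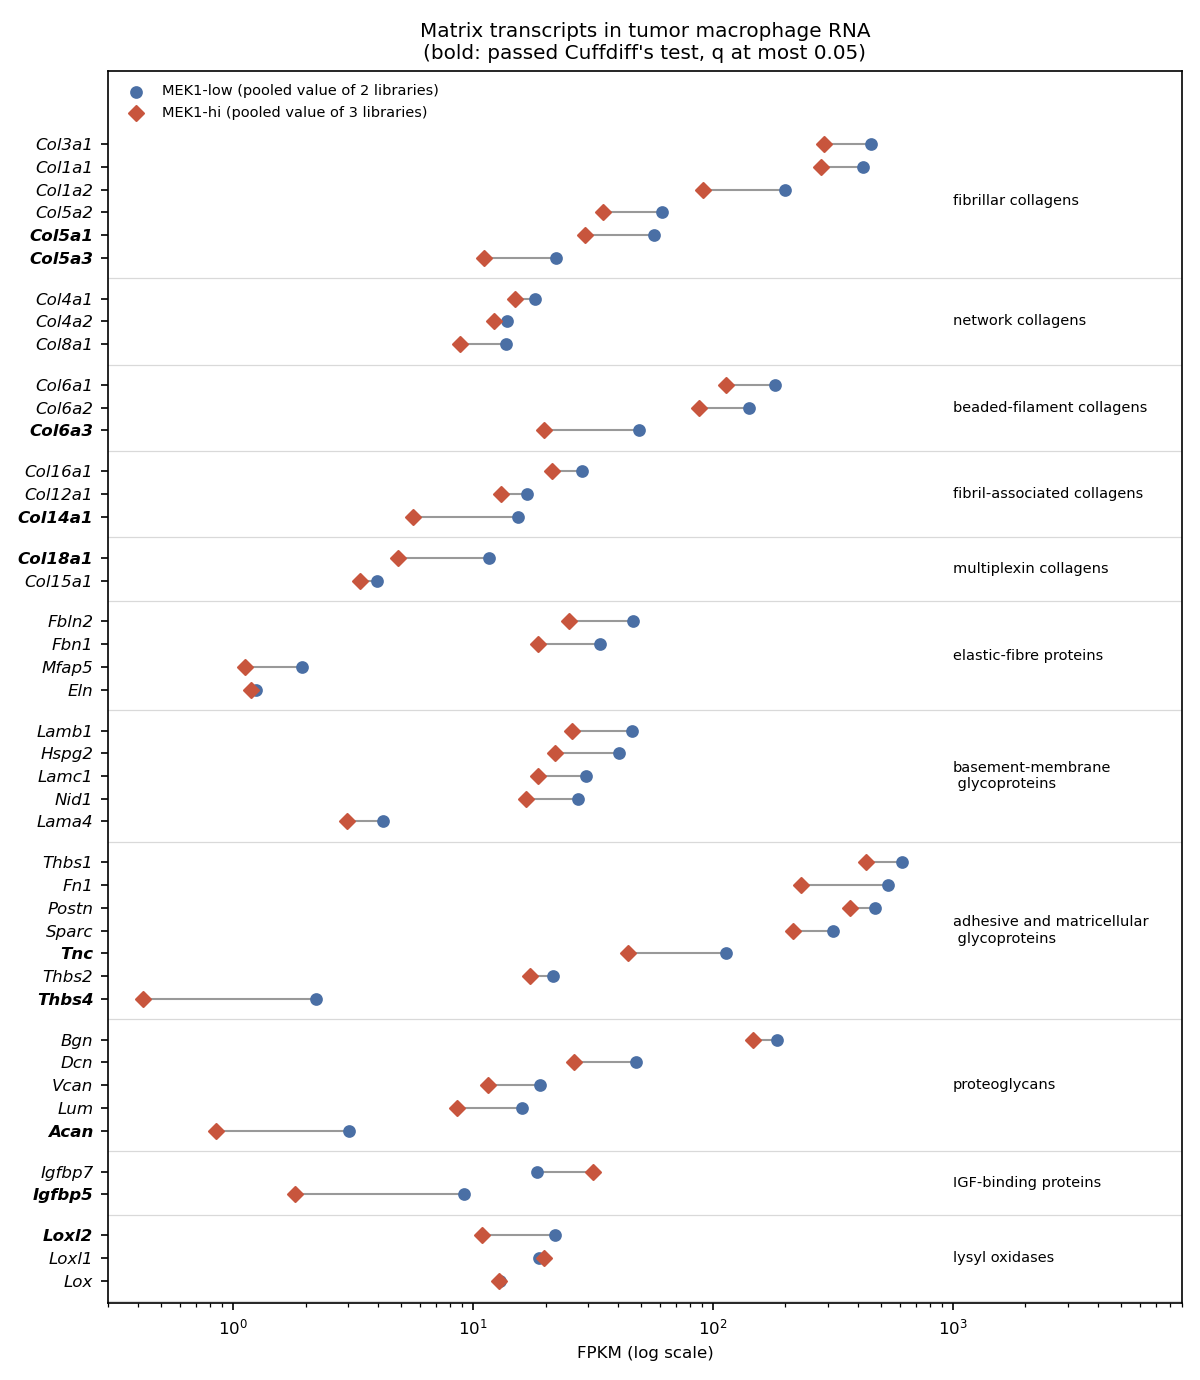
FPKM (horizontal axis, log scale) of the 43 matrix members in MEK1-low (blue circles) and MEK1-hi (red diamonds), grouped by class, with names in bold where Cuffdiff's q was at most 0.05. Levels run from 0.421 (Thbs4 in MEK1-hi) to 613 FPKM (Thbs1 in MEK1-low), and the red diamond lies to the left of the circle in 41 of the 43.

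Adhesive and matricellular glycoproteins held the 3 most abundant members in MEK1-low, and Thbs4, the least abundant in MEK1-hi, with summed FPKM of 2071 and 1314. All 7 had the lower FPKM in MEK1-hi and 2 were called. Tnc, which encodes tenascin-C, a protein of wound edges and tumor stroma, went from 113 to 44.1 FPKM (chromosome 4, 63959785 to 64047015, log2 fold change -1.35, q = 0.0118 in the authors' deposited table). Thbs4, a thrombospondin of tendon and muscle, went from 2.21 to 0.421 FPKM (chromosome 13, 92751586 to 92794818, -2.39, q = 0.0491 in the authors' deposited table). At these low levels the fold is soft, and a pseudocount of 1 gave -1.18.

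Fn1, fibronectin, which cells lay down before collagen, was the second most abundant member in MEK1-low. It had 535 and 232 FPKM, the largest loss of FPKM of any member, and its log2 fold change of -1.21 exceeded that of 3 called members (Loxl2, Col5a3 and Col5a1), yet it did not pass (p = 0.00565, q = 0.23 in the authors' deposited table). Thbs1, thrombospondin-1, which activates TGF-beta, was the most abundant member in both groups, with 613 and 435 FPKM (-0.49, Cuffdiff q = 0.9998). Postn, periostin, a partner of collagen I and tenascin-C, had 471 and 371 FPKM (-0.34, q = 0.9998 by Cuffdiff). Sparc, a collagen-binding glycoprotein, had 316 and 214 FPKM (-0.56, q = 0.923 by Cuffdiff), and Thbs2 had 21.5 and 17.2 FPKM (-0.32, Cuffdiff q = 0.9998). The 3 thrombospondins of the set therefore ranged from a called decrease at a low level to differences well inside the test's error at high and middle levels.

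Calls were counted by abundance. Of the 11 members with at least 100 FPKM in MEK1-low, 1 (Tnc) was called, although their median log2 fold change was -0.65. Of the 25 members between 10 and 100 FPKM, 6 were called, with a median of -0.81, and of the 7 below 10 FPKM, 3 were called, with a median of -0.79. Fn1 and Col1a2 were the 2 members not called whose fold change was at least as large as the smallest among the called members. The groups by level were cut on the MEK1-low value, which also enters the fold change. In the lowest group, Thbs4 and Acan reached an FPKM of 1 through MEK1-low alone. Calls and medians by level are therefore only a description of the deposited values and were not tested. The spread between libraries behind them is not in the table.

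**Figure D4:**
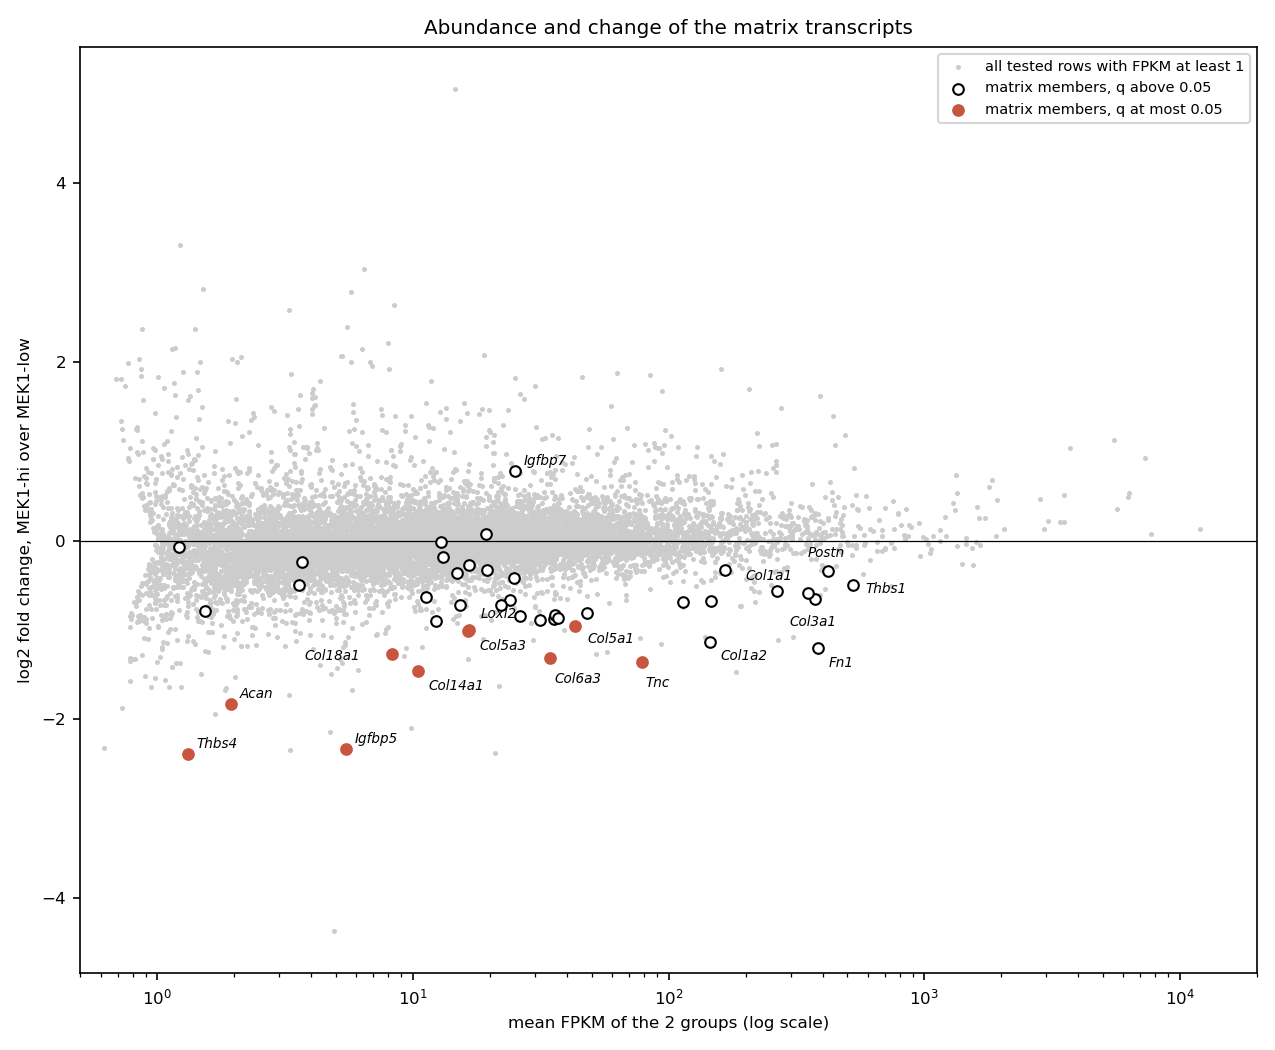
Log2 fold change (MEK1-hi over MEK1-low, vertical axis) against the mean FPKM of both groups (horizontal axis, log scale) for the tested rows with an FPKM of at least 1 (grey) and the 43 members (circles, filled where q was at most 0.05). Fn1 and Col1a2 sit at -1.21 and -1.13 among the abundant transcripts without a call, while Thbs4, Igfbp5 and Acan, at -2.39, -2.33 and -1.83, are at the low end of abundance.

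Proteoglycans were lower in all 5 members, with 1 called. Acan, aggrecan, the large hyaluronan-binding proteoglycan of cartilage, went from 3.03 to 0.849 FPKM (chromosome 7, 79018053 to 79115099, log2 fold change -1.83, or -1.12 with a pseudocount of 1, q = 0.00676 in the authors' deposited table). That row starts upstream of the annotated gene, which spans 79053483 to 79115099, so its value is less certain. Vcan, versican, a relative of Acan that monocytes also make, had 19.0 and 11.5 FPKM (-0.72, Cuffdiff q = 0.29). Of the set's small leucine-rich proteoglycans, which coat collagen fibrils, Bgn (biglycan) was the most abundant with 184 and 147 FPKM (-0.33, Cuffdiff q = 0.9998). Dcn (decorin) had 47.8 and 26.2 FPKM (-0.87, q = 0.115 by Cuffdiff), and Lum (lumican), 46984 bases from it on the same strand of chromosome 10, had 15.96 and 8.53 FPKM (-0.90, q = 0.184 by Cuffdiff). Decorin and lumican thus had like log2 fold changes at different levels, and biglycan, on chromosome X, a smaller decrease. Outside the set, Aspn (20.7 and 24.6 FPKM) and Ogn (9.59 and 11.4 FPKM) of this family had the higher FPKM in MEK1-hi. Fmod (1.40 and 0.760 FPKM) and Podnl1 (1.92 and 1.46 FPKM) had the lower, and none of these was called. Fmod reached an FPKM of 1 through MEK1-low alone.

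Elastic-fibre proteins had 0 of 4 called. Fbn1, fibrillin-1, the backbone of microfibrils, had 33.6 and 18.7 FPKM (log2 fold change -0.85, q = 0.171 by Cuffdiff), and Fbln2, fibulin-2, had 46.2 and 25.2 FPKM (-0.88, q = 0.112 by Cuffdiff). Mfap5, a microfibril glycoprotein, had 1.94 and 1.12 FPKM (-0.79, Cuffdiff q = 0.9998). Eln, elastin itself, was near the lower limit of the set, with a log2 fold change of -0.07 (Cuffdiff q = 0.9998). Exons of Gm9913, on the opposite strand, cover 20.1% of the annotated exon bases of Fbn1, and the strand setting of the authors' counting is not stated, so its FPKM may hold reads of both.

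The IGF-binding proteins, secreted carriers of insulin-like growth factors that also bind matrix, had 1 call among 2 members. Igfbp5 went from 9.11 to 1.81 FPKM (chromosome 1, 72858065 to 72874865, log2 fold change -2.33, q = 0.00676 in the authors' deposited table). Igfbp7 had 18.4 and 31.6 FPKM (log2 fold change 0.78), the only member more than 0.1 above 0 on the log2 scale, and did not pass (p = 0.335, q = 0.9998 in the authors' deposited table). Its row spans chromosome 5, 77310484 to 77408045, while the annotated gene spans 77349240 to 77408041, and exons of Polr2b on the opposite strand share 7.03% of its exon bases. Its value is uncertain for that reason.

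Lysyl oxidases, the copper enzymes that crosslink collagen and elastin, had 1 call among 3 members. Loxl2 (chromosome 14, 69609476 to 69695834, a row it shares with the microRNA gene Mir6950) went from 22.0 to 10.9 FPKM, a log2 fold change of -1.01 (q = 0.0369 in the authors' deposited table). Lox had 13.0 and 12.8 FPKM and Loxl1 18.8 and 19.7 FPKM, with log2 fold changes of -0.02 and 0.07 (q = 0.9998 for both by Cuffdiff). The signs of those small values turned with the scaling, Lox to 0.00 on the positive side at equal medians and Loxl1 to -0.03 at equal FPKM sums. Whether Loxl2 differed from its relatives was not tested. Of the called members, Loxl2 (5.57%), Tnc (2.26%) and Col5a1 (at most 1.33% for any of them) share exon bases with genes on the opposite strand.

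Other matrix genes, taken from lists around the set, were counted in the same way, beside 0.325% of all tested rows called lower and 0.999% called higher. Of 26 other collagens, 4 reached an FPKM of 1 and 1 was called: Col7a1, the anchoring-fibril collagen, went from 15.4 to 5.61 FPKM (log2 fold change -1.45, q = 0.00676 in the authors' deposited table). Of 68 other matrix glycoproteins and proteoglycans, 37 reached that level, 29 of them lower in MEK1-hi (3 of these through MEK1-low alone). Of tested rows with such an FPKM, 53.5% were lower. The median log2 fold change over the 37 was -0.31, against -0.02 over those rows, with 3 called lower and 0 higher. The 3 were Cspg4 (-1.73, also a pericyte marker), Sparcl1, a relative of Sparc (6.24 and 2.38 FPKM, q = 0.0276), and Pxdn, the peroxidase that crosslinks collagen IV (40.3 and 18.7 FPKM, q = 0.00676), as called in the authors' deposited table. The summed FPKM of the 68 genes was 2156 and 2163, of which Tgfbi, a TGF-beta-induced adhesion protein, gave 838 and 932. Mgp, the matrix Gla protein that limits calcification, had 84.2 and 173 FPKM (log2 fold change 1.04, q = 0.102 by Cuffdiff), the largest log2 increase among genes of that list with an FPKM of at least 1, and was not called.

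The machinery that makes collagen was mostly lower in FPKM but not called. Of 29 genes for collagen hydroxylases, chaperones, propeptide proteases and export factors, 26 reached an FPKM of 1 (2 through MEK1-low alone). Of these, 22 were lower in MEK1-hi, against 53.5% of tested rows with an FPKM of at least 1. A decrease of at least 1.5-fold was seen in 6, against 3.92% of those rows. The median log2 fold change was -0.30 and 0 were called by Cuffdiff. By its unadjusted p under 0.05, 5 were lower and 0 higher, beside 2.58% and 3.5% of all tested rows. The most abundant genes of that list, P4hb and Ppib, which serve secreted proteins of all cells, had 354 and 326 FPKM and 371 and 390 FPKM. Of 31 collagen and matrix receptors, 27 reached an FPKM of 1 (1 through MEK1-low alone, Lyve1, and 1 through MEK1-hi alone, Itga8). Of the 27, 20 were lower in MEK1-hi and 7 higher, where 53.5% of tested rows with an FPKM of at least 1 were lower. The median log2 fold change over the 27 was -0.30, against -0.02 over those rows. Calls were 2 lower and 0 higher, beside 0.325% and 0.999% of all tested rows. Itgb3, an integrin chain that binds fibronectin and vitronectin, went from 4.75 to 2.18 FPKM (q = 0.0163) and Lyve1, a hyaluronan receptor, from 2.67 to 0.694 FPKM (q = 0.0369), both called in the authors' deposited table.

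**Figure D5:**
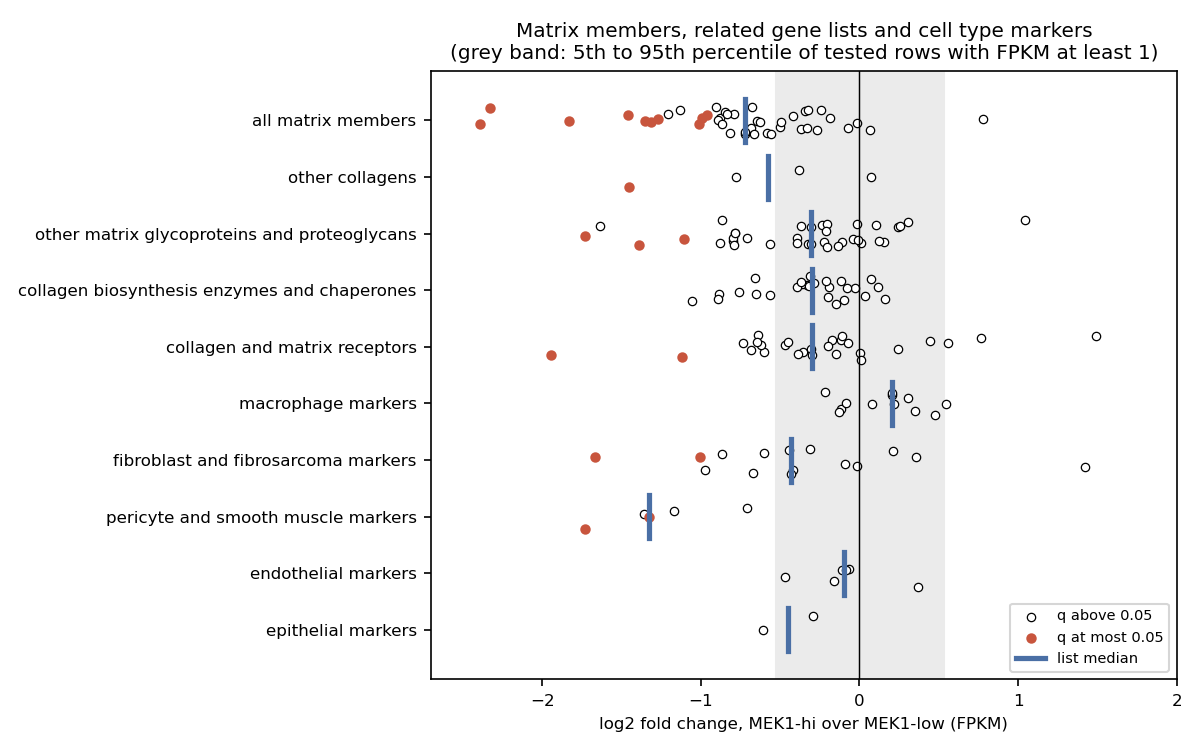
Log2 fold change (MEK1-hi over MEK1-low, horizontal axis) of each gene with an FPKM of at least 1 in the matrix set, the related gene lists and the marker lists, with filled points for a Cuffdiff q of at most 0.05, a bar at each list's median and vertical jitter only for display. Medians are -0.72 for the matrix members, -0.43 for fibroblast and fibrosarcoma markers, -1.32 for the 5 pericyte and smooth muscle markers and 0.21 for macrophage markers.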

How the data were processed

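Stranded mRNA libraries were prepared from 750 ng of TRIzol-extracted RNA with an integrity number above 8.0 and sequenced as paired reads of 100 bases, per the labels' protocols. FastQC 0.73, TopHat, Cufflinks, Cuffdiff and mm10 are named in the submitters' processing notes, with no role or order. Neither annotation nor strand setting is stated there. A table of Cuffdiff output was deposited, with a pooled FPKM per group, a test statistic (a score), a p-value and a q-value per row. FPKM values are not counts and there is no value per library, so no count model, limma fit or test of replicates was run, depth is unknown, and calls are the authors' at a q of 0.05. The smallest p is 5e-05, shared by 91 rows, 5 of them members.

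Log2 fold changes were computed from the deposited FPKM, since spreadsheet error text fills 515 cells of the authors' fold change column. Members and classes, and 4 related gene lists and 5 marker lists with 213 entries besides, each found in the table, were chosen with earlier results of these data known, so their counts are not independent support. All members with an FPKM of at least 1 could be named, with called genes of the other lists, the 2 most abundant of a related list without calls and the 3 most abundant of a marker list. Prrx2, Twist1, Twist2, Tcf21, Rgs5, Tgfbi, Mgp and Itga8 were named after their values were seen. Coordinates are the authors' loci, written 1-based. Exons and overlaps come from GENCODE release M21 and promoter windows from RefSeq on GRCm38.p6, of which 12 whose start equals that of GENCODE were each checked against the transcript that follows. The Benjamini-Hochberg and Benjamini-Yekutieli steps were tested on simulated data. Alternatives changed the threshold, the adjustment, the source of p, the FPKM limit, scaling, the pseudocount and joined rows. Tables were handled in Python 3.11.15 with pandas 2.3.3 and numpy 2.4.6, tests on normal p with scipy 1.17.1, and plots with matplotlib 3.10.9.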

Additional observations from a re-analysis of the deposited data

How the results depend on the processing

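The count of 10 members called lower stayed between 8 and 13 with a q threshold of 0.1, adjustment over rows with an FPKM of at least 1, a 2-fold minimum, other FPKM limits or only rows with 1 symbol. It was 5 at a q of 0.01, 25 at an unadjusted p under 0.05, 1 with normal p values from the statistic and 0 under Benjamini-Yekutieli, where 0 rows of the whole table were called lower. At that unadjusted p, and with an FPKM of at least 1, calls were 2 of 4 other collagens and 12 of 37 other matrix genes (1 higher). They were 5 of 26 biosynthesis genes and 9 of 27 receptors (3 higher). Of all tested rows, 2.58% were lower and 3.5% higher at that p. The members' median log2 fold change of -0.72 became -0.82 with equal FPKM sums, -0.71 with equal medians, -0.68 with a pseudocount of 1, and -0.70 both without an FPKM limit and with only rows with 1 symbol. The log2 ratio of summed FPKM, -0.66, became -0.76 with equal sums and -0.69 without Thbs1, the most abundant member. Equal sums lowered each log2 fold change by 0.0988, turning Loxl1 to -0.0306, and equal medians raised each by 0.0157, turning Lox to 0.000136. Leaving out each library could not be run, since the table has no value per library. No paired analysis was possible because the columns pool the libraries of a group and carry no replicate number. Depth per library is unknown, so no detection floor is given.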
